A study of Mus musculus with 8 samples.

Results

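The GATA factors and their FOG partners were followed through the emergence of blood from arterial endothelium in the mouse embryo. The 8 genes, chosen by name, were the 6 GATA genes Gata1 to Gata6 and the FOG genes Zfpm1 and Zfpm2, and each was found once among the 24015 genes of the count table. GATA factors are zinc finger proteins that bind DNA through a short motif centred on the letters GATA. Gata1, Gata2 and Gata3 are best known from blood, with Gata2 in stem and progenitor cells, Gata1 in red cells, megakaryocytes, mast cells and eosinophils, and Gata3 in T cells and the sympathetic nervous system. Gata4, Gata5 and Gata6 are best known from heart, gut and other mesoderm and endoderm, while the FOG proteins bind the amino-terminal finger of GATA factors and act as their coregulators.

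RNA had been sequenced in 4 groups of 2 libraries, each library made from 100 cells of E11.5 embryos pooled by genotype. Cells came from the aorta-gonad-mesonephros region with the vitelline and umbilical arteries. Hematopoietic clusters, the blood cells that bud from the arterial wall, were sorted as Ter119- VE-Cadherin+ c-Kit+. Endothelium was sorted as Ter119- VE-Cadherin+ c-Kit- CD41- CD45-. Both came from wild type (WT) embryos and from Sl/Sl embryos, which carry a germline deletion that takes in the gene for Kit ligand (Kitl), so that every cell of the embryo lacks it.

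Counts on genes summed to between 8933236 and 13428214 per library, and 12844 to 14309 genes were detected. Kitl had 1250 and 923 counts in the WT endothelium and 6 and 2 in the Sl/Sl endothelium. Among clusters, WT libraries had 110 and 0 counts of it and Sl/Sl libraries 1 and 3, so that it does not set the second WT cluster library apart from Sl/Sl. The 10 endothelial markers summed to 5948 to 6747 CPM (counts per 1000000, on totals scaled by edgeR's TMM factors) in the endothelium and to 429 to 2800 CPM in the clusters. The 10 hematopoietic markers summed to 1319 to 2023 CPM in the clusters and to 179 to 300.4 CPM in the endothelium. Mesenchymal markers, which neither gate should hold, summed to between 42.1 and 4871 CPM over the 8 libraries, with the highest value in Sl/Sl clusters replicate 2. Libraries of bulk cells do not tell fewer cells that express a gene from less RNA in each cell, which holds for every level below.

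The GATA genes are close relatives, and their fingers are shown here because reads from one could in principle be counted on another. The coding sequence of the carboxy-terminal finger, from its first to its last zinc-binding cysteine, was read from the GENCODE vM1 transcripts of mm9, the build of the count table. It is 75 bases long, as long as 1 read. Capitals mark the bases that differ from Gata2, and each sequence is given 5′ to 3′ on the coding strand.
Gata2: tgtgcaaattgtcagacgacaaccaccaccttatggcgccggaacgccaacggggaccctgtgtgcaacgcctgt
Gata3: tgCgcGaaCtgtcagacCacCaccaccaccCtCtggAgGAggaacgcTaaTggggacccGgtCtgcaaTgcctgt
Gata1: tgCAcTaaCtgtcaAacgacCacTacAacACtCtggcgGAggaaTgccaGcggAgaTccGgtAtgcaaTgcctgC
Gata4: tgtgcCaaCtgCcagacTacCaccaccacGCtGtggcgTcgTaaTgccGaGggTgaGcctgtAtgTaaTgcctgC
Gata5: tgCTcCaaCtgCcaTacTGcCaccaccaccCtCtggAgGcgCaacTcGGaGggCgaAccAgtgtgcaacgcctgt
These lie at chr6:88154604-88154678 (plus strand) for Gata2, chr2:9784746-9784820 (minus) for Gata3, chrX:7537733-7537807 (minus) for Gata1, chr14:63822520-63822594 (minus) for Gata4 and chr2:180063036-180063110 (minus) for Gata5. Each falls within a single exon, which is the fifth exon of the transcript in Gata1, Gata2 and Gata3. Gata2 and Gata3 encode the same 25 residues there, yet share only 60 of the 75 bases. Over all pairs of the 6 GATA genes, 51 to 61 of the 75 bases were the same. The longest run of bases that any 2 of the 8 genes shared exactly in their annotated transcripts was 26, between Gata4 and Gata5, against a read length of 75, so that no read matching 1 member exactly over its full length could match another.

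Levels between genes are compared as RPKM, counts per kilobase of exon and per 1000000 counts on genes. In the clusters Gata2 was the highest of the 8 genes, at 29.4 ± 0.515 RPKM (SD, n = 2) in WT and 19.4 ± 1.22 in Sl/Sl. In the endothelium Gata3 had the highest mean, at 22.2 ± 11.2 RPKM in WT (SD, n = 2) and 15.8 ± 2.30 in Sl/Sl. In WT endothelium it overlapped Gata6, at 21.5 ± 10.8, while Gata2 lay below both at 8.61 ± 2.37. In Sl/Sl endothelium it overlapped Gata2, at 15.2 ± 0.936, and Gata6 lay below both at 10.6 ± 1.89.

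**Figure D1:**
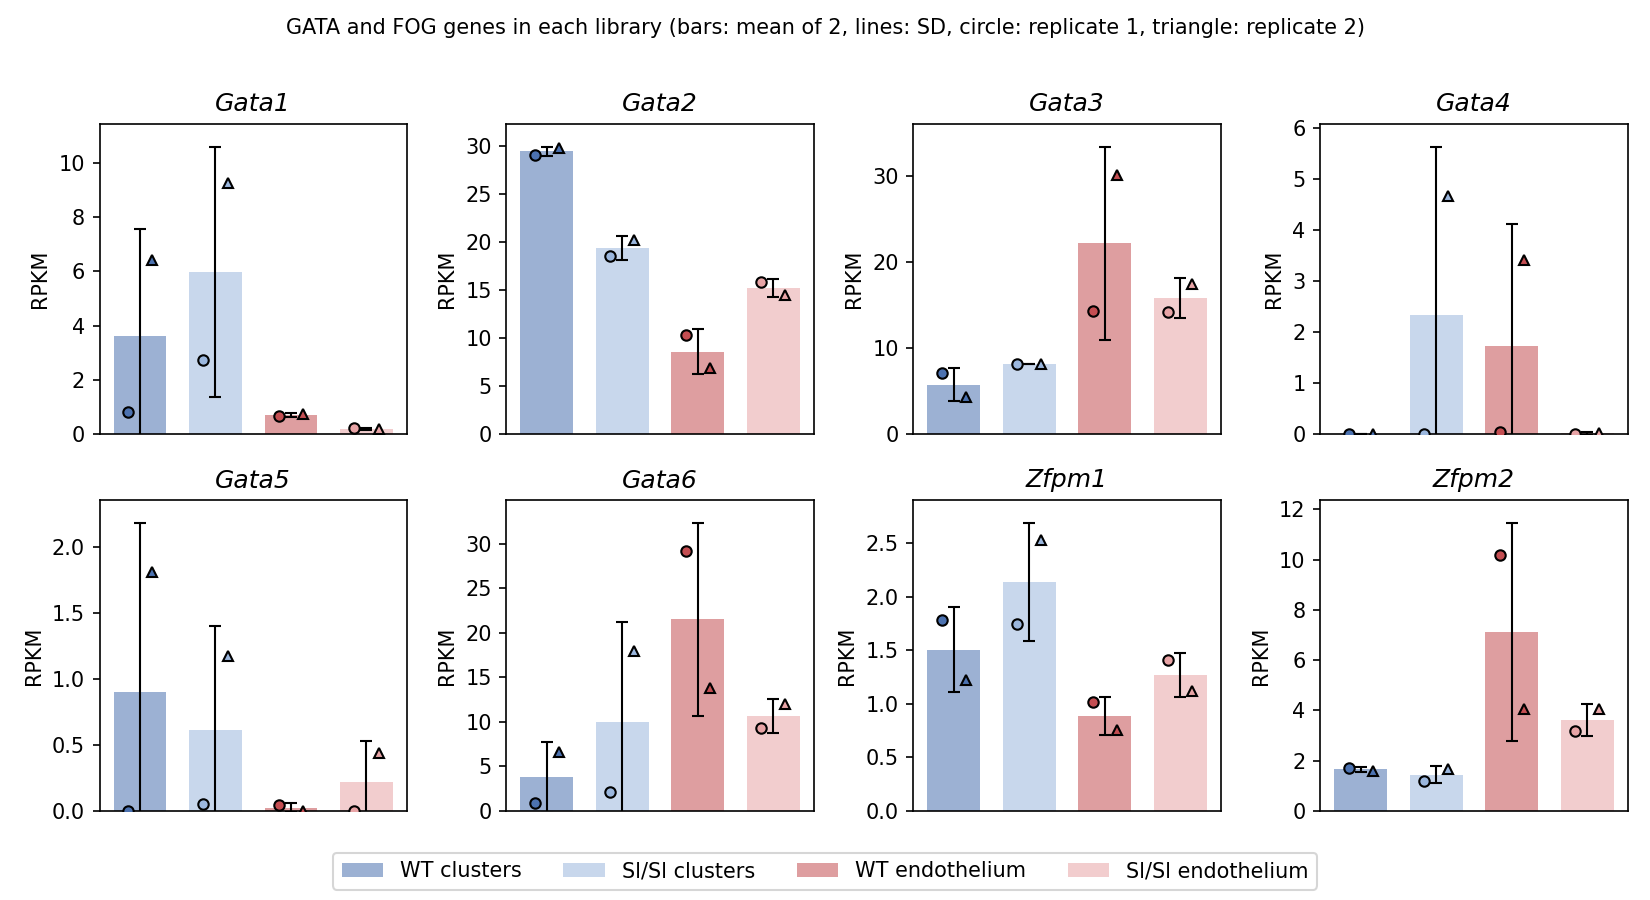
RPKM of the 8 genes in each library, with bars for the mean of 2 libraries, lines for the SD (not drawn below 0) and a circle and a triangle for replicates 1 and 2; each panel has its own axis. The libraries of Gata2 did not overlap between the 4 groups, although edgeR did not call it between the genotypes. Gata1, Gata4, Gata5 and Gata6 differed widely between replicates of the clusters.

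Endothelium was first set against clusters over both genotypes. At an adjusted p under 0.1 in edgeR's quasi-likelihood test, 16.6% of the 13908 genes tested differed, 1180 of them higher and 1130 lower in endothelium. Of the 8 GATA and FOG genes, all of which passed the filter on low counts, 3 were called: Gata2 was lower, and Gata3 and Zfpm2 were higher in endothelium. Their libraries did not overlap between the cell types, which held for 19.7% of all genes. With so few members, that count is not read as a result about the family.

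Gata2 (chromosome 6, 88148658 to 88157026, 6 exons), the GATA factor needed for blood stem cells to form and persist, was present in every library. It reached 87.4 and 94.5 CPM in the WT clusters, 59.1 and 61.6 in the Sl/Sl clusters, 53.6 and 50.1 in the Sl/Sl endothelium and 34.0 and 23.8 in the WT endothelium. No 2 of the groups overlapped, and both cluster groups lay above both endothelial groups. How many of all genes separate the 4 groups in this way was not computed, and edgeR did not call Gata2 between the genotypes. Over both genotypes Gata2 was 1.91-fold lower in endothelium (log2 fold change -0.94, SE 0.28, edgeR adjusted p = 0.0618). In WT alone it was 3.14-fold lower (log2 -1.65, SE 0.40, edgeR adjusted p = 0.0493), in a comparison that called 8.24% of genes and 2 of the 8 members. In Sl/Sl alone, where 2.83% of genes and 0 of the 8 members were called in edgeR, the log2 fold change of Gata2 was -0.22 (SE 0.39, adjusted p = 0.862). The call over both genotypes held without WT endothelium replicate 1 (edgeR adjusted p = 0.0868) and was lost without any other single library, with log2 fold changes of -0.82 to -0.99 and adjusted p of 0.128 to 0.179. That in WT was lost without any of the 4 WT libraries, at -1.42 to -1.93 and adjusted p of 0.112 to 0.232.

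The gap in Gata2 between the cell types was thus wider in the WT libraries than in the Sl/Sl libraries, and this difference was tested directly. Sl/Sl clusters lay below WT clusters by 0.59 on the log2 scale (SE 0.39, unadjusted p = 0.160 in edgeR) and Sl/Sl endothelium lay above WT endothelium by 0.84 (SE 0.39, unadjusted p = 0.0585 in edgeR). The interaction of genotype and cell type was -1.43 (SE 0.55), with an unadjusted p of 0.0278 and an adjusted p of 0.902 in edgeR, and so did not pass. Libraries of the genotypes that did not overlap in either cell type and pointed in opposite directions were seen for 4.92% of all genes, Gata2 among them and no other member.

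Gata3 (chromosome 2, 9778705 to 9800227, minus strand, 6 exons), a factor of T cells, sympathetic neurons and embryonic kidney, ran the other way. Its level was 46.9 and 102.8 CPM in the WT endothelium and 47.5 and 59.7 in the Sl/Sl endothelium, against 21.1 and 13.8 in the WT clusters and 25.8 and 24.6 in the Sl/Sl clusters. Every endothelial library was above every cluster library. Over both genotypes Gata3 was 3.02-fold higher in endothelium (log2 1.59, SE 0.38, edgeR adjusted p = 0.0306), and in WT 4.29-fold higher (log2 2.10, SE 0.55, edgeR adjusted p = 0.0696). In Sl/Sl the log2 difference was 1.09 (SE 0.54, edgeR adjusted p = 0.398). WT endothelium replicate 2 held the highest value, and without it the log2 fold change over both genotypes was 1.25 (edgeR adjusted p = 0.129) and that in WT was 1.43 (adjusted p = 0.363). The WT call was also lost without WT clusters replicate 1 (log2 2.44, edgeR adjusted p = 0.109) or replicate 2 (log2 1.79, adjusted p = 0.279).

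**Figure D2:**
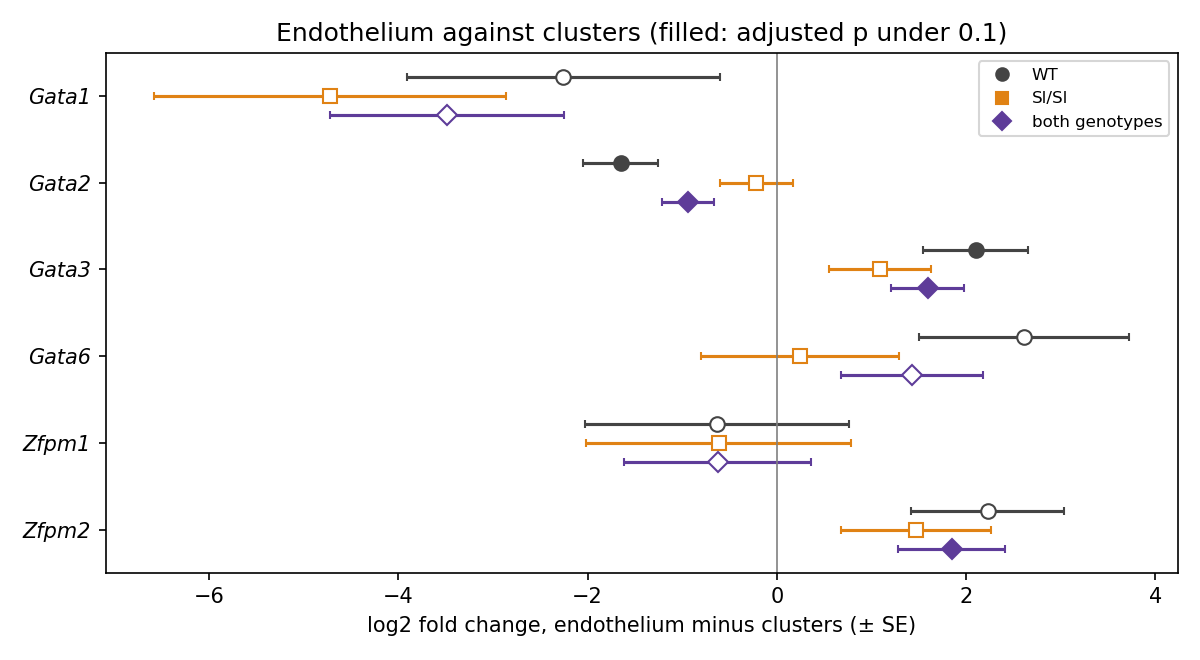
Log2 fold change of endothelium minus clusters (± SE, from edgeR) for the 6 genes with counts above 3 in at least 1 library of every group, in WT, in Sl/Sl and over both genotypes; filled symbols passed an adjusted p of 0.1. Gata2 lay below 0 and Gata3 and Zfpm2 above it over both genotypes, while the values of Gata1, Gata6 and Zfpm1 did not pass.

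Within WT, endothelium and clusters did not overlap in 6 of the 8 genes, against 50.6% of all genes: Gata2 and Zfpm1 were lower and Gata3, Gata6 and Zfpm2 higher in endothelium. The sixth was Gata4, with 2 and 122 counts in endothelium against 0 and 0, and since a count of 0 allows up to 3, its lower replicate is not told apart from the clusters. Within Sl/Sl this held for 5 of the 8, against 46.3% of all genes: Gata1, Gata2 and Zfpm1 were lower and Gata3 and Zfpm2 higher. Gata2, Gata3, Zfpm1 and Zfpm2 lay on the same side in both genotypes, 4 of the 8 genes against 24.5% of all genes, and edgeR called Gata2 and Gata3 in WT and no member in Sl/Sl.

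Gata1 (chromosome X, 7536386 to 7545036, minus strand, 6 exons), the master factor of red cells and megakaryocytes, was uneven among clusters. WT cluster libraries had 17 and 153 counts (1.46 and 11.9 CPM) and Sl/Sl cluster libraries 62 and 236 (5.09 and 16.5 CPM). The endothelial libraries held 16 and 15 counts in WT and 5 and 3 in Sl/Sl, or 0.357 to 1.51 CPM, and WT clusters replicate 1 fell within the endothelial range. The log2 difference over both genotypes was -3.49 (SE 1.24) with an edgeR adjusted p of 0.110, above the threshold. Without WT clusters replicate 1 it passed (log2 -3.90, edgeR adjusted p = 0.0993), and without any other single library it did not, the smallest difference being that without WT clusters replicate 2 (log2 -2.43, adjusted p = 0.421). DESeq2, which called 25.7% of the genes it tested, called Gata1 on the 8 libraries (adjusted p = 0.00604).

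Markers of megakaryocytes, the platelet-forming cells in which Gata1 acts, moved with it among the clusters. The 8 genes of that list summed to 301.2 and 1151 CPM in the WT clusters and to 467 and 1689 CPM in the Sl/Sl clusters, in the same order as Gata1. In the endothelium the sum was 529 to 883 CPM, of which Vwf, which endothelial cells also make, held most. Pf4, platelet factor 4, had 274 and 5563 counts in the WT clusters and 1357 and 9872 in the Sl/Sl clusters, against 10 to 158 in the endothelium. Of the 10 erythroid markers 4 or 5 were detected in each library. Hba-a1, Hba-a2, Hbb-b1, Hbb-b2 and Slc4a1 had 0 counts in every library, and the reason was not tested. The markers summed to 21.5 to 96.0 CPM in 7 libraries and to 247 CPM in Sl/Sl clusters replicate 1, although both gates remove Ter119+ cells. There Hbb-y, an embryonic globin, alone held 222 CPM (2701 counts). The part of megakaryocyte content in the spread of Gata1 was not tested.

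Gata6 (chromosome 18, 11052508 to 11085633, 7 exons) is a factor of endoderm, heart and vascular smooth muscle. The WT endothelium held 94.9 and 46.9 CPM and the Sl/Sl endothelium 31.0 and 40.7. The clusters held 2.67 and 20.5 CPM in WT and 6.65 and 53.6 in Sl/Sl, so that 3 of 4 cluster libraries lay below all endothelial libraries and Sl/Sl clusters replicate 2 lay within their range. The log2 difference over both genotypes was 1.43 (SE 0.75, edgeR adjusted p = 0.265). It was 2.61 in WT (SE 1.11, edgeR adjusted p = 0.235) and 0.25 in Sl/Sl (SE 1.05, adjusted p = 0.955). The WT difference was called by DESeq2 (adjusted p = 0.0674), as were 19.2% of the genes it tested, and by edgeR with no filter on low counts (adjusted p = 0.00526), which also called Gata6 over both genotypes (adjusted p = 0.0282).

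Sl/Sl clusters replicate 2 was also the library with the highest mesenchymal markers, at 4871 CPM over the 10 genes against 42.1 CPM in replicate 1 of the same group. Without that library the log2 difference of Gata6 over both genotypes was 2.52 (edgeR adjusted p = 0.0776), and without WT clusters replicate 2 it was 2.46 (adjusted p = 0.0755). These are the 2 cluster libraries with the most Gata6. Without any other single library the difference was 1.01 to 1.64 and was not called (edgeR adjusted p of 0.259 to 0.469). The mesenchymal sum was 884 and 1108 CPM in the WT clusters, 1631 and 224 CPM in the WT endothelium and 139 and 1204 CPM in the Sl/Sl endothelium. In each of the 4 groups the replicate with the higher sum also had more Gata6. In the WT clusters, though, the sums lay close beside 2.67 and 20.5 CPM of Gata6. Between groups the order did not hold: WT clusters replicate 1, with a sum of 884 CPM, had less Gata6 than Sl/Sl endothelium replicate 1, with 139 CPM and 31.0 CPM of Gata6. The part of mesenchymal content in the levels of Gata6 was not tested. An antisense RNA, 1010001N08Rik, overlaps an exon of Gata6 by 58 bases and had 1 to 212 counts per library, with the highest counts in the Sl/Sl endothelium, and since the strand setting of the counting is not given, reads in the overlap cannot be told apart.

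Gata4 (chromosome 14, 63817752 to 63864097, minus strand) and Gata5 (chromosome 2, 180059793 to 180069384, minus strand), heart and endoderm factors, were seen in single libraries only. Gata4 had 213 counts in Sl/Sl clusters replicate 2 and 122 in WT endothelium replicate 2, and 0 to 2 in the other 6. Gata5 had 75 counts in WT clusters replicate 2, 52 in Sl/Sl clusters replicate 2, 13 in Sl/Sl endothelium replicate 2 and 0 to 2 in the other 5. In each group that held either gene, 1 replicate had it and the other was at or near 0. A count of 0 allows up to 3 counts, and for each gene at least 1 group had no library above that floor, so no fold change is given. The difference of Gata4 between groups rests on a single library a group and was not called in edgeR after the filter on low counts, although DESeq2 called it in WT endothelium against WT clusters (adjusted p = 0.0532) and in the interaction of genotype and cell type (adjusted p = 0.0668), where it called 1.30% of the genes it tested.

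Both libraries with Gata4 also held Myod1, the skeletal muscle determination factor, with 81 counts in the cluster library and 61 in the endothelial one against 0 to 3 in the others. In a list of 8 skeletal muscle genes added after the data had been seen, 4 genes had over 3 counts in Sl/Sl clusters replicate 2 and 3 in WT endothelium replicate 2. WT clusters replicate 2 also had 4, without Gata4. Without both libraries that held Gata4 and Myod1, edgeR called 0 of the 8 GATA and FOG genes in any comparison and 1059 genes between endothelium and clusters over both genotypes. The log2 fold changes of Gata2, Gata3 and Zfpm2 were then -0.83, 1.21 and 2.19, with adjusted p of 0.306, 0.275 and 0.156.

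**Figure D3:**
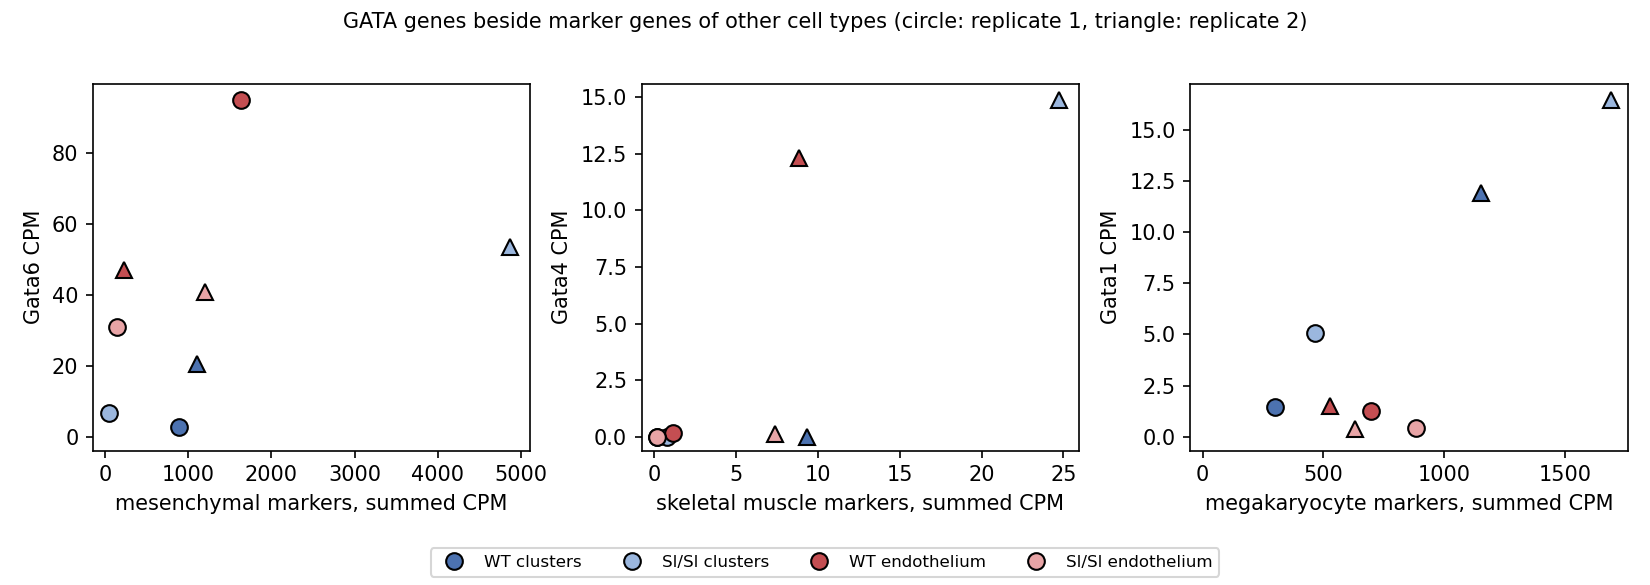
CPM of Gata6, Gata4 and Gata1 in the 8 libraries against the summed CPM of mesenchymal, skeletal muscle and megakaryocyte markers, with circles and triangles for replicates 1 and 2. Gata1 was highest in the cluster libraries with the most megakaryocyte RNA, and Gata4 was seen in 2 libraries. In each group Gata6 was higher in the replicate with the higher mesenchymal sum, an order that did not hold between groups.

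Of the FOG genes, Zfpm1 (chromosome 8, 124806041 to 124861147, 10 exons), which encodes FOG1, the partner of GATA1 in red cells and megakaryocytes, was low throughout. It ranged from 2.73 to 8.03 CPM, with 4.05 and 5.60 in the WT clusters, 5.83 and 8.03 in the Sl/Sl clusters, 2.73 and 3.50 in the WT endothelium and 4.05 and 4.99 in the Sl/Sl endothelium. Its groups lay close together and the log2 difference between endothelium and clusters was -0.62 (SE 0.99, edgeR adjusted p = 0.748). The cluster libraries with the most Gata1 did not both hold the most Zfpm1, since WT clusters replicate 2 had 11.9 CPM of Gata1 and 4.05 CPM of Zfpm1.

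Zfpm2 (chromosome 15, 40486588 to 40936138, 8 exons), which encodes FOG2, the partner of GATA4 in the heart, was present in every library and higher in the endothelial ones. It had 51.6 and 21.3 CPM in the WT endothelium and 16.5 and 21.4 in the Sl/Sl endothelium, against 5.83 to 7.84 CPM in the 4 cluster libraries. No cluster library reached the lowest endothelial one. Over both genotypes Zfpm2 was 3.60-fold higher in endothelium (log2 1.85, SE 0.57, edgeR adjusted p = 0.0706). The call was lost without any 1 library other than WT endothelium replicate 2, with log2 fold changes of 1.46 to 2.10 and edgeR adjusted p of 0.0705 to 0.269 over the 8 fits, the lowest value being that without WT endothelium replicate 1. Within WT the log2 difference was 2.23 (edgeR adjusted p = 0.171) and within Sl/Sl 1.47 (adjusted p = 0.433). Per kilobase, Zfpm2 exceeded Zfpm1 in the endothelium by 2.25 to 10.1 times, while in the clusters the ratio ran from 0.663 to 1.30.

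The make-up of GATA RNA was described as the share of each gene in the summed RPKM of the 6 GATA genes. Gata2 held 76.7% and 60.8% in the WT clusters and 58.7% and 33.0% in the Sl/Sl clusters. Its endothelial shares were 18.9% and 12.6% in WT and 40.1% and 32.6% in Sl/Sl. Gata3 took 26.2% and 54.7% in the WT endothelium and 35.9% and 39.1% in the Sl/Sl endothelium, against 8.95% to 25.8% in the clusters. The ratio of Gata2 to Gata3 was 4.10 and 6.80 in the WT clusters, 2.27 and 2.48 in the Sl/Sl clusters, 0.719 and 0.230 in the WT endothelium and 1.12 and 0.833 in the Sl/Sl endothelium. Ordered by this ratio, the 4 groups did not overlap. WT clusters lay at one end, WT endothelium at the other and both Sl/Sl groups between them. Gata2 and Gata3 had themselves been called in opposite directions between the cell types. How often the ratio of other gene pairs separates the groups was not computed. Neither gene was called between the genotypes or in the interaction in edgeR, so the place of the Sl/Sl groups is a description only. Gata2 exceeded Gata1 per kilobase in every library. Among clusters the ratio ran from 2.19 in Sl/Sl clusters replicate 2 to 35.0 in WT clusters replicate 1. In the endothelium it ran from 9.23 in WT replicate 2 to 82.3 in Sl/Sl replicate 2, where Gata1 had only 3 counts.

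**Figure D4:**
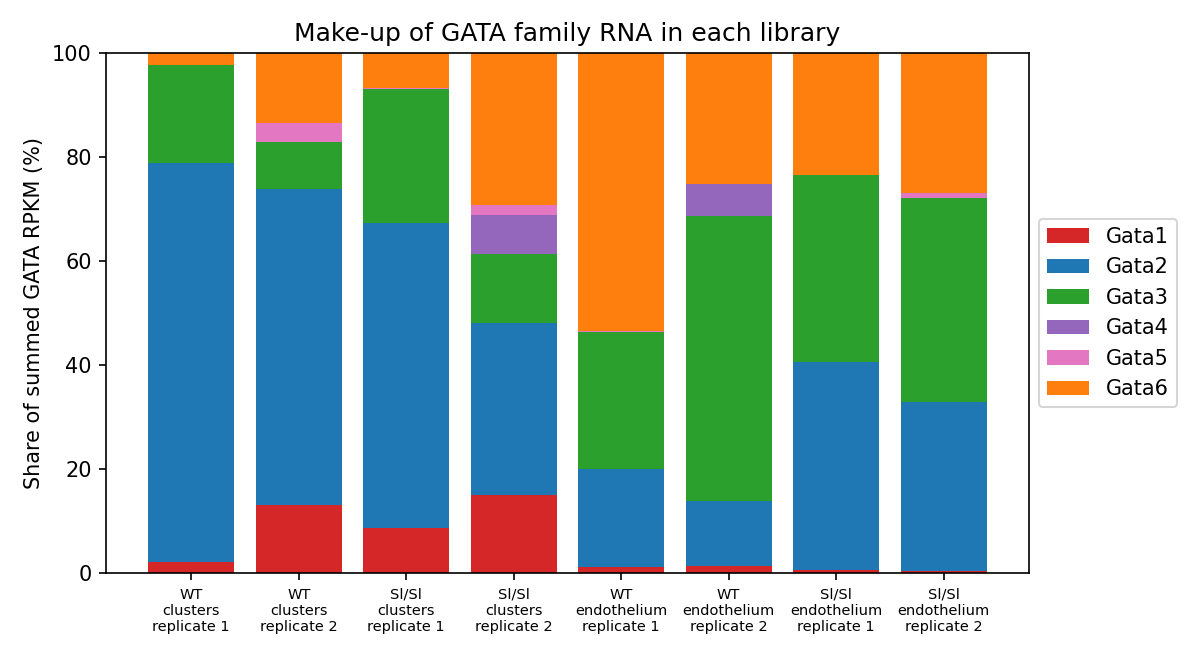
Share of each GATA gene in the summed RPKM of the 6 GATA genes (%), one bar per library. Gata2 was the largest share in all 4 cluster libraries, and Gata3 and Gata6 together outweighed Gata2 in all 4 endothelial libraries.

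In the order of levels in the clusters, neighbours often could not be separated, while in the endothelium they overlapped less often. In the WT clusters Gata2 was followed by Gata3, Gata6, Gata1, Zfpm2, Zfpm1, Gata5 and Gata4, and only Gata2 was clear of the next gene. In the Sl/Sl clusters the order was Gata2, Gata6, Gata3, Gata1, Gata4, Zfpm1, Zfpm2 and Gata5. Gata2 was clear of Gata6, although Gata6 in replicate 2 (17.9 RPKM) came close to Gata2 in replicate 1 (18.5 RPKM). Zfpm1 was also clear of Zfpm2, and Zfpm2 of Gata5.

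Sl/Sl was then set against WT within each cell type, the comparison that asks what the loss of Kit ligand does to the niche and to the emerging blood cells. In edgeR 0% of genes passed an adjusted p of 0.1 in clusters, in endothelium or in the interaction, and 0 of the 8 members. Of the 13908 genes tested, 587 had an unadjusted p under 0.05 in edgeR in clusters, 580 in endothelium and 736 in the interaction. With no difference in any gene, a share of about 0.05 would do so. These counts are near that share and are not read as genotype differences. Among members with a fold change, the log2 differences in clusters ran from -0.59 for Gata2 to 1.38 for Gata6, and in endothelium from -1.78 for Gata1 to 0.84 for Gata2. The value of Gata6 in clusters was -0.80 without Sl/Sl clusters replicate 2 and 3.48 without WT clusters replicate 2. In clusters the libraries of the genotypes did not overlap for 3 of the 8 genes: Gata2 was lower, and Gata3 and Zfpm1 were higher in Sl/Sl, where 32.7% of all genes showed no overlap in one direction or the other. Gata3 went from 21.1 and 13.8 CPM to 25.8 and 24.6, with a log2 difference of 0.53 (SE 0.53, edgeR adjusted p = 1). In endothelium, where 28.5% of all genes showed no overlap, 5 of the 8 did so: Gata2 and Zfpm1 were higher and Gata1 and Gata6 lower in Sl/Sl, and Gata4 had 2 and 122 counts in WT against 0 and 1, a gap between the nearest libraries that lies within the floor of 3 counts. The difference of Gata6 there was -0.98 (SE 1.05, edgeR adjusted p = 1). DESeq2 called 175 genes in clusters and 179 in endothelium, 1.37% of the genes it tested in each, and edgeR with no filter on low counts called 253 and 65. None of the 8 members was among them, although DESeq2 gave Gata5 no adjusted p in clusters.

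Transcription factors that act with or against GATA proteins in blood were read from a list of 20 genes, all tested. Over both genotypes 7 of the 20 were called, against 16.6% of all genes, and 6 of these were lower in endothelium. They were Runx1, Myb, Gfi1b, Nfe2, Spi1 and Gfi1, all of them factors of blood cells. The sort set blood cells against endothelium, and its part in the count called was not tested. That count is therefore not read as a result about GATA partners. Runx1, needed for endothelium to give rise to blood, was at 122 to 182 CPM in the clusters and 1.91 to 2.63 in the endothelium (log2 -6.04, SE 0.30, edgeR adjusted p = 5.96e-05). Nr2f2, the venous factor COUP-TFII, was the 1 gene higher in endothelium (log2 1.66, SE 0.41, edgeR adjusted p = 0.0327), with 138 to 295 CPM there and 22.2 to 217 CPM in the clusters. Tal1 and Lmo2, which form a complex with GATA1 or GATA2, had log2 differences of -0.38 (SE 0.44, edgeR adjusted p = 0.646) and -0.22 (SE 0.27, adjusted p = 0.678). Lmo2 stood at 89.4 to 160 CPM in the endothelium and 113 to 230 in the clusters. The median log2 difference of the list was -0.37, against -0.07 for all genes tested.

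Among 18 cofactors of GATA and FOG proteins, such as the subunits of the NuRD complex that FOG1 binds, 1 was called. Rbbp7 was lower in endothelium (log2 -0.67, SE 0.16, edgeR adjusted p = 0.0312), and the median of the list was -0.09.

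Known targets of GATA2 in progenitors and mast cells numbered 12, of which 9 were called, against 16.6% of all genes, in both directions, with a median log2 difference of -0.73. Kit, which was also a sorting criterion, Meis1, Cpa3, Hdc and Ms4a2 were lower in endothelium, the last 3 being mast cell and basophil genes. Ms4a2 had 0 and 396 counts in the WT clusters, 1 and 107 in the Sl/Sl clusters and 0 to 1 in the endothelium. Replicate 1 of each cluster group lay within the floor of 3 counts and is not told apart from the endothelium. Cd34, Emcn, Edn1 and Nos3 were higher in endothelium, and all 4 are also endothelial genes. The sort set blood cells against endothelium, and its part in the share of this list called was not tested. That share is not read as a result about GATA2 targets. Meis1 fell from 112 to 206 CPM in the clusters to 16.9 to 44.4 in the endothelium (log2 -2.34, SE 0.33, edgeR adjusted p = 0.00285), and Cd34 rose from 341 to 640 CPM to 1058 to 1157 (log2 1.16, SE 0.20, adjusted p = 0.00680). Cpa3, mast cell carboxypeptidase, varied between cluster replicates as Gata1 did, with 3578 and 24099 counts in WT and 438 and 13153 in Sl/Sl. Of the 22 erythroid and megakaryocyte targets 15 passed the filter on low counts, with a median of -1.24. Of these 4 were called, 26.7% against 16.6% of all genes, all lower in endothelium, among them the platelet genes Gp1bb, Pf4 and Gp9. The endothelial gate excluded CD41+ cells, the cluster gate did not, and Itga2b, the gene for CD41, is in this list. The share is therefore not read as a result about GATA targets, and the part of the gate in it was not tested. Gp1bb, a subunit of the platelet receptor for von Willebrand factor, had 143 and 1009 counts in the WT clusters, 151 and 992 in the Sl/Sl clusters and 1 to 10 in the endothelium (log2 -6.57, SE 0.97, edgeR adjusted p = 0.00352).

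Of 19 genes that act with GATA4, GATA5 and GATA6 in heart, gut and gonad, 11 passed the filter on low counts and were tested. Their median log2 difference was -0.75, and 4 were called, 36.4% against 16.6% of all genes: Sox17, Isl1 and Nppb were higher and Mef2c was lower in endothelium. Nppb had 1 and 137 counts in the WT endothelium and 166 and 71 in the Sl/Sl endothelium, against 0 in every cluster library. Its WT endothelium replicate 1 lay within the floor of 3 counts and is not told apart from the clusters. Sox17, an arterial endothelial and endoderm factor, was at 47.4 to 111 CPM in the endothelium and 0.856 to 18.2 in the clusters (log2 2.93, SE 0.81, edgeR adjusted p = 0.0489). The part of the sort in the share of this list called was not tested, and that share is not read as a result about GATA partners. Of 15 genes of the sympathetic, adrenal and nephric tissues in which Gata3 acts, 5 were tested, with a median of -0.34, and 1, Stmn2, was called and higher in endothelium (log2 4.72, SE 0.79, edgeR adjusted p = 0.00663). Th, a defining gene of sympathetic cells, had 78 counts in Sl/Sl clusters replicate 2 and 0 in the other 7 libraries. Within single genotypes, no list had more members called than over both. No gene of these 6 lists was called between the genotypes or in the interaction.

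Last, the genes whose log2 CPM followed each member most closely over the 8 libraries were listed by Pearson's r, as a description without a test, since all points share the same libraries and cell types. Gata1 was followed by Tdp2 (r = 0.988), Treml1 (0.977) and Pf4 (0.977), the last 2 being platelet genes. Treml1 had 4 and 283 counts in the WT clusters, 40 and 810 in the Sl/Sl clusters and 0 to 4 in the endothelium. Gata2 was followed by Ftx (0.977), Acot11 (0.974) and Mob3a (0.967), and Mob3a shared its order of groups, with 1253 and 2021 counts in the WT clusters, 761 and 1388 in the Sl/Sl clusters, 407 and 365 in the Sl/Sl endothelium and 292 and 127 in the WT endothelium. Gata3 was followed by Rabgap1 (0.976), Notch3 (0.974) and Selk (0.973).

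Gata4 was followed by Vtn (0.991) and Myod1 (0.991), both with counts above 3 in only the same 2 libraries. Gata5 was followed by Ccr3 (0.978), Plcxd1 (0.974) and Plce1 (0.973), which were likewise low or absent outside the 3 libraries with Gata5. Gata6 was followed by Crabp2 (0.971) and the posterior Hox genes Hoxd9 (0.964) and Hoxc9 (0.961). Crabp2, which binds retinoic acid in cells, had 2 and 387 counts in the WT clusters and 43 and 892 in the Sl/Sl clusters. Zfpm1 was followed by Mif4gd (0.977), Ubxn2b (0.955) and Mapk9 (0.911), and Zfpm2 by Cd164 (0.975), Plekhd1 (0.973) and Zbtb4 (0.967). Plekhd1 had 0 counts in all 4 cluster libraries and 69, 22, 12 and 16 in the endothelial libraries.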

How the data were processed

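Libraries had been prepared by Smart-seq2, which copies whole polyadenylated transcripts. It uses no molecular identifiers, and the floor of 3 counts covers counting error alone. The authors aligned the paired 75-base reads to mm9 with STAR 2.4.2a and counted them on genes with featureCounts of Subread 1.4.5. Raw counts on each gene were deposited, with exon coordinates and lengths. The annotation and strand setting are not given in the sources used here. The authors sorted cells in separate experiments, and the labels do not say which libraries shared one. A difference between sorting experiments can therefore not be told apart from other differences between replicates. P-values measure the spread between libraries of pooled embryos.

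From the counts, CPM (TMM-scaled totals), RPKM (plain totals) and tests were computed with edgeR 4.0.16 in R 4.3.3. The 13908 genes kept by filterByExpr were fitted in all 8 libraries and 4 groups, with quasi-likelihood tests, Benjamini-Hochberg adjustment over all genes and a threshold of 0.1. SE is the log2 fold change over the square root of the F statistic. The biological coefficient of variation was 0.817, and an exact permutation test of 2 against 2 libraries cannot go below p = 0.333. Log2 CPM for correlations used a prior count of 2. DESeq2 1.42.0 was an alternative. On simulated data the median estimates had the sign that was set, and some but not all changed genes were called, fewer at the smaller fold. The genes, lists and tests were chosen with earlier results of these data known. Named were all 8 members, up to 4 called genes per list and direction, the 3 genes closest to each member, Kitl and the sort markers. The further names, Vwf, Spi1, Gfi1, Ms4a2, Treml1, Cpa3, Tal1, Lmo2, Th, Hbb-y and 1010001N08Rik, were picked after their values were seen. Some genes that this rule names are not reported here.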

Additional observations from a re-analysis of the deposited data

Results flagged for a closer look

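Over the 4 libraries of a cell type, the highest or lowest CPM of a member stood apart from the rest by Dixon's test at the 95% level in 5 of 16 gene and cell type pairs. Chance flags about 1 in 20 groups of normally distributed values, a rate that does not apply to Gata4 and Gata5, whose other libraries were at or near 0 counts. The 4 libraries hold both genotypes. Gata4 stood apart in Sl/Sl clusters replicate 2, at 14.9 CPM against 0 in the other 3 cluster libraries, and in WT endothelium replicate 2, at 12.3 CPM against at most 0.159 in the other 3. Gata5 in Sl/Sl endothelium replicate 2 was at 1.55 CPM, or 13 counts, with at most 2 counts in the other endothelial libraries. Zfpm2 was at 51.6 CPM in WT endothelium replicate 1, with 16.5 to 21.4 in the other 3, and at 5.83 CPM in Sl/Sl clusters replicate 1, with 7.70 to 7.84 in the other 3. The Zfpm2 value in the clusters is a small gap in a narrow range.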

How the results depend on the processing

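Over both genotypes edgeR called 3 members, and 1 at an adjusted p of 0.05, 1 to 2 without any single library and 0 without both libraries that held Gata4 and Myod1. In WT it called 2, against 5 in DESeq2, 4 with no filter on low counts, 1 at 0.05, 1 on the 4 libraries compared, 0 to 2 without any single library and 0 without both of those libraries. In Sl/Sl DESeq2 called 1, Gata1, where edgeR called 0. For the interaction DESeq2 and edgeR with no filter each called 1, Gata4. DESeq2 called 3616 genes over both genotypes and 2580 in WT, against 2310 and 1146 in edgeR, which called 1990 in WT with no filter. Other scaling factors (RLE) or a minimum of 10 counts in 2 libraries called the same members as edgeR with TMM. Blocking on replicate number, edgeR called 2 members over both genotypes, Zfpm2 being lost at an adjusted p of 0.103, and 2 in WT, and the Zfpm1 interaction went from -0.01 to 0.0098. Deviations of same-numbered replicates correlated at -0.111 to 0.157 between groups, highest between the cluster groups, and since not every pair was over 0.1 the numbers were not taken as pairs. Whether they mark a shared sort is not given in the labels.

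Signs that turned were all of values not called. Without both libraries that held Gata4 and Myod1, a setting chosen after seeing the data, the Sl/Sl minus WT log2 difference was -0.39 for Gata1 and -0.80 for Gata6 in clusters and 0.19 for Gata3 in endothelium. Without single libraries the range was -0.39 to 2.87 for Gata1, -0.80 to 3.48 for Gata6 and -0.41 to 0.011 for Zfpm2 in clusters, and -0.94 to 0.21 for Gata3 in endothelium. For Gata6 in Sl/Sl endothelium against clusters it was -0.58 to 2.43, and for the interaction -0.26 to 0.24 in Zfpm1 and -0.017 to 1.26 in Zfpm2. The cause was not tested. On TMM-scaled totals, 30 of the 32 group means in RPKM moved by less than 1 SD, and Gata2 in WT clusters went to 28.0 and Gata3 in Sl/Sl clusters to 7.83.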
